A study of Mus musculus with 6 samples.

Results

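The proteasome genes described here are the 44 listed genes whose symbols follow the naming series of proteasome subunits, activators and assembly factors (Psma, Psmb, Psmc, Psmd, Psme, Psmf and Psmg, each followed by a number), out of 15824 listed genes. The pattern matched 47 symbols, and the 3 interferon-inducible catalytic subunits of the immunoproteasome, Psmb8, Psmb9 and Psmb10, were left out. The names, and no measured value, chose the members. The lid subunit Sem1, whose symbol does not follow the series, is not a member. The thymus subunit Psmb11 was not analysed here.

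RNA was sequenced after polyA selection from alveolar macrophages, phagocytes that live in the air sacs of the lung. The cells came from mice aged 8 weeks and had been isolated with a flow cytometer. The KO group comprised 3 libraries from macrophages with a knockout of Men1, and the WT group comprised 3 libraries from macrophages of WT genotype. Men1 encodes menin, a chromatin scaffold protein of histone methyltransferase complexes. The labels do not give the Men1 allele, a Cre driver, the sexes of the animals or whether animals were pooled, and nothing in them says that each library is its own mouse. The p-values therefore reflect the spread among these 3 libraries a group, and that spread may be technical.

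The proteasome degrades proteins that carry ubiquitin chains. Its barrel-shaped core particle has outer rings of alpha subunits, which gate the entrance, and inner rings of beta subunits, of which Psmb5, Psmb6 and Psmb7 carry the cutting sites. The regulatory particle caps the barrel: its base holds a ring of ATPases that unfold substrates, and its lid removes ubiquitin. Alternative caps, the activators PA28 and PA200, open the core without ubiquitin, and dedicated chaperones assemble the core and the base. In macrophages the same machinery also makes peptides for display on MHC class I.

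Total counts lay between 19955242 and 20151990 per library, and the 44 members together took 0.553% to 0.556% of the counts in KO libraries and 0.573% to 0.579% in WT libraries. Men1 itself had 150, 149 and 165 counts in KO libraries and 639, 594 and 603 counts in WT libraries. The labelled cell type was only partly borne out by markers. General macrophage genes were abundant, with a summed level of 14450 to 14585 CPM (counts scaled to library size) in KO and 9598 to 9739 CPM in WT, whereas the alveolar macrophage marker Siglecf was at 1.34 ± 0.154 CPM in KO and 2.06 ± 0.381 CPM in WT (SD, n = 3 each) and Fabp1 had no counts in KO and a single count over the WT libraries. Of the 11 listed alveolar macrophage markers 4 were under 1 CPM, and the 11 summed to 1254 to 1297 CPM in KO and 367 to 381 CPM in WT, most of it from Marco in KO. Other markers moved with the groups as well. The 9 fibroblast markers summed to 10.7 to 11.6 CPM in KO and 83.2 to 85.2 CPM in WT, and the 16 genes of the G2 and M phases to 505 to 515 CPM in KO and 1220 to 1221 CPM in WT. The neutrophil markers summed to 138 CPM in each KO library and 57.3 to 60.7 CPM in WT, and the 4 Y-linked genes to 0 to 0.102 CPM in KO and 162 to 169 CPM in WT. Markers of B cells, of T and NK cells and of lung epithelium summed to at most 10.9 CPM per list in any library, and endothelial markers to 63.8 to 66.5 CPM in KO and 76.1 to 79.3 CPM in WT. The part of these differences in the results below was not tested, and genotype and the difference in Y-linked transcripts cannot be told apart.

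The proteasome genes divided in direction and changed little in size, apart from a few members. Psmd8, a lid subunit, was 1.75-fold lower in KO, Psme2, which encodes a PA28 subunit, was 1.47-fold higher, and Psme4, which encodes PA200, was 1.35-fold lower. Most core subunits were slightly higher and the lid members that changed were all lower. The lid subunit Sem1, which the naming pattern does not take in, was higher (log2 fold change 0.38). All 44 members passed the low-count filter. The quasi-likelihood test of edgeR, adjusted over all tested genes by the Benjamini-Hochberg method, gives the p-values below. In it 32 members (72.7%) passed the threshold of 0.05, beside 69.2% of all 11817 genes tested. Of these, 19 members (43.2%) were higher, beside 34.4% of all genes, and 13 (29.5%) were lower, beside 34.9% of all genes. The share of members that changed was thus near the background. When the group means also had to differ by at least 25% (the higher over the lower), 5 members were left (11.4%), beside 36.5% of all genes, and these were Psme2, Psmg4, Psma8, Psmd8 and Psme4. No member changed 2-fold. The median absolute log2 fold change was 0.13 over the members and 0.24 over all tested genes, and the median signed log2 fold change was 0.03 over the members and 0.00 over all genes. The CPM values of KO and WT did not overlap for 33 members (75.0%), beside 71.2% of all genes.

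**Figure D1:**
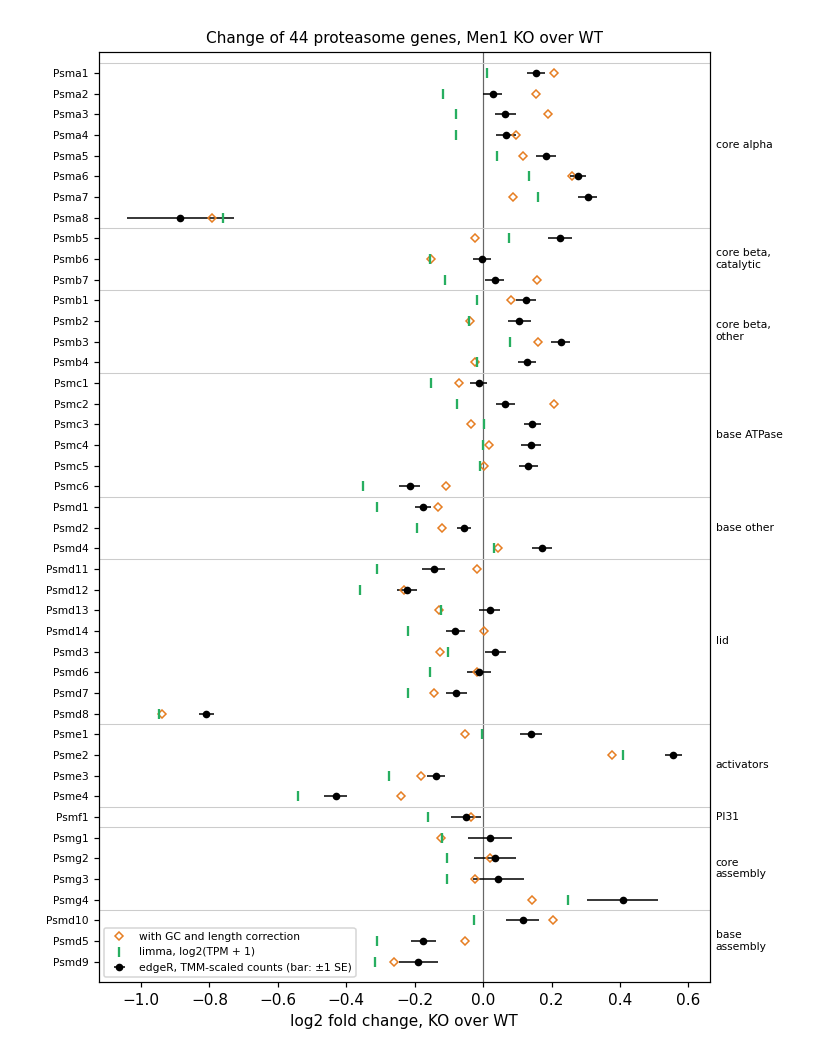
Log2 fold change of each of the 44 proteasome genes, KO over WT (x axis), with genes grouped by role down the page. Black points are edgeR estimates with bars of 1 SE, orange diamonds the estimates with GC and length correction, and green ticks the limma estimates on log2(TPM + 1). Psmd8 and Psma8 lie far to the left at -0.81 and -0.89, Psme2 lies farthest to the right at 0.56, and most green ticks sit to the left of the black points.

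The direction of the small changes depended on the scale. On the authors' TPM values (a transcript's share of the library, scaled to its length), the median log2 fold change of all tested genes was -0.12 and that of the members -0.11, so a member at 0 on the count scale is shifted to the left there. By limma on log2(TPM + 1), 5 members were higher and 24 lower, beside 2463 higher and 5781 lower of all 11817 genes. Psma4 and Psmc2 passed there in the direction opposite to the count test. After centring the TPM values on the libraries' medians, 18 members were higher and 11 lower, beside 4308 higher and 3511 lower of all 11817 genes. A correction of the counts for GC content and transcript length, added after seeing the data, gave 13 higher and 14 lower members. Of the 11622 genes tested with it, 3770 were higher and 3978 lower. Of the 19 members called higher without it 10 stayed higher, of the 13 called lower 10 stayed lower, and 0 changed to the opposite call. Psmd8, Psme4, Psme2 and Psma7 were past the threshold in the same direction in all 21 settings run. Psma6 and Psmb3 (higher) and Psmc6, Psmd1, Psmd12 and Psme3 (lower) were so in 20 settings. For these members the other setting sets the biological coefficient of variation, the relative spread between samples, to 0.1, where these libraries gave 1.66%. Psmg4 (higher) also passed in 20 settings, all but the GC and length correction. Psma8 (lower) passed in each of the 20 settings in which it was tested. In bulk samples, fewer cells of a type and less RNA per cell cannot be told apart.

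Promoter sequences are shown for the 3 members past the threshold in all settings with the largest changes, Psmd8, Psme4 and Psme2, and for the next lower members by fold change, Psmd12 and Psmc6, since their genes moved in both directions although their products belong to 1 machine. Each runs from 250 bases before to 50 bases after the start of the gene in RefSeq, build GRCm38.p6, on the gene's strand. Altogether 5 motifs were searched on both strands, and a match to any of them is in capitals. Psmd8 lies at chr7:29180624-29180923 on the minus strand, Psme4 at chr11:30771525-30771824 on the plus strand, Psme2 at chr14:55591052-55591351 on the minus strand, Psmd12 at chr11:107479278-107479577 on the plus strand and Psmc6 at chr14:45329574-45329873 on the plus strand.
Psmd8: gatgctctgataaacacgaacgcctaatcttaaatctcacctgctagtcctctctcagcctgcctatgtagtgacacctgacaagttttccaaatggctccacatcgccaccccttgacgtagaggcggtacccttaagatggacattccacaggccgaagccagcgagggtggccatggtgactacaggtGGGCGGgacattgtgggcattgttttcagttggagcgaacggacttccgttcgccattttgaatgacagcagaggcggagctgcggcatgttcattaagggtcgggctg
Psme4: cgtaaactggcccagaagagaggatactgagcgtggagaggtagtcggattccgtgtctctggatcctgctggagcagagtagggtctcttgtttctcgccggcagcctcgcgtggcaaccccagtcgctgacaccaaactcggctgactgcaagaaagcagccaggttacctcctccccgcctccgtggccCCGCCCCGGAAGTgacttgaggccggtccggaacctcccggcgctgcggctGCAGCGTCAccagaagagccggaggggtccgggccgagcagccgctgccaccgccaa
Psme2: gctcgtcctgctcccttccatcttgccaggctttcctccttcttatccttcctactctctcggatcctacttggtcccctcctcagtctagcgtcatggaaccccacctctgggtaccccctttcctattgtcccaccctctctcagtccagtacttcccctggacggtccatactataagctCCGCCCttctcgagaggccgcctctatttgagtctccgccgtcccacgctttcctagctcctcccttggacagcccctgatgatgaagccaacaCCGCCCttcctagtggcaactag
Psmd12: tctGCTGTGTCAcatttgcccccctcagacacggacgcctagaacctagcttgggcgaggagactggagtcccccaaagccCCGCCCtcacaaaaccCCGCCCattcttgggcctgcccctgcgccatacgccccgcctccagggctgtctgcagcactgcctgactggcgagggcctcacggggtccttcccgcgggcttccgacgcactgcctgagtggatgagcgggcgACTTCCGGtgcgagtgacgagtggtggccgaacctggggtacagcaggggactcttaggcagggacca
Psmc6: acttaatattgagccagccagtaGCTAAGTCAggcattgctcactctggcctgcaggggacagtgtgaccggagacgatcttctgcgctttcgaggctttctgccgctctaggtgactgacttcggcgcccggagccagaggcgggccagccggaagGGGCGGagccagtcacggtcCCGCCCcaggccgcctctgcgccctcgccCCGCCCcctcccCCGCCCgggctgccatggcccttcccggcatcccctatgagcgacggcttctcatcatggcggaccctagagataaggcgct

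In the Psmd8 sequence the capitals mark a GC box (GGGCGG, the site of SP1-type factors), and in the Psme2 sequence they mark a pair of GC boxes on the opposite strand. The Psme4, Psmd12 and Psmc6 sequences each hold the core of the antioxidant response element (TGACNNNGC, bound by NRF1 and NRF2 with small MAF partners), read on the opposite strand, beside GC boxes. Psme4 and Psmd12 also hold an ETS site (CCGGAAGT), which in Psme4 overlaps the end of the GC box. A promoter entry was found for 36 of the 44 members. The antioxidant core was in 6 of the 36 (16.7%), which are Psme4, Psmb5, Psmb6, Psmd12, Psmc6 and Psmd9, in 12.4% of all 27025 promoters of the same length and in 15.1% of those of tested genes. Of these 6 members, 4 were lower in KO, 1 was higher and 1 did not pass the test. The GC box was in 22 of the 36 (61.1%), in 35.9% of all promoters and in 64.4% of the promoters of tested genes. The ETS site was in 8 members (22.2%), in 3.99% of all promoters and in 8.80% of those of tested genes. The CCAAT box (CCAAT, the site of NF-Y) was in 12 members (33.3%), in 38.0% of all promoters and in 39.25% of those of tested genes. The interferon-stimulated response element was searched as GAAA, any pair of bases, then GAAA again. It was in 5 members (13.9%), namely Psmd4, Psme1, Psmb3, Psmd9 and Psmg4, of which 4 were higher and 1 lower, in 3.49% of all promoters and in 3.23% of those of tested genes. These matches describe the letters in the window and are not evidence of binding.

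Among lid genes, Psmd8 changed most. Psmd8 (gene ID 57296, the mammalian Rpn12, on chromosome 7 from 29174187 to 29180673) had 244, 254 and 250.4 CPM in KO libraries and 431, 437 and 444 CPM in WT libraries. Every KO library lay far below every WT library, and the gap between the groups was many times the spread within them. The mean was 249.6 ± 4.71 CPM in KO and 438 ± 6.43 CPM in WT (SD, n = 3 each), and the log2 fold change was -0.81 (SE 0.0220, adjusted p = 1.96e-27). It was past the threshold with the assumed coefficient of variation as well (adjusted p = 2.09e-10), and its log2 fold change ran from -0.95 to -0.79 over all settings. Per length, Psmd8 was the most abundant lid transcript among the members in both groups. It stood at 275 ± 4.82 TPM in KO and 533 ± 5.40 TPM in WT. The other 7 lid members lay between 74.6 and 152 TPM in KO and between 86.6 and 166 TPM in WT. Sem1, a lid subunit that is not a member, stood above Psmd8, at 718 TPM in KO and 617 TPM in WT. In WT Psmd8 was also the highest of all 44 members, whereas in KO it stood below Psmb5, Psme2 and most of the beta subunits.

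Of the other lid genes among the members, 4 were lower, 3 did not pass the test and none was higher (edgeR). Psmd12 (Rpn5), a scaffold subunit of the lid, had 112, 109.9 and 116 CPM in KO libraries and 133, 133 and 127 CPM in WT libraries. The groups did not overlap, and its log2 fold change was -0.22 (SE 0.0295, adjusted p = 2.92e-08). Psmd11 (Rpn6), which clamps the lid to the core, had a log2 fold change of -0.14 (adjusted p = 0.000211) that shrank to -0.02 with GC and length correction. Psmd14 (Rpn11) is the deubiquitinase that strips ubiquitin from substrates as they enter. It had 127, 128 and 124 CPM in KO libraries and 131, 134 and 136 CPM in WT libraries, close but not overlapping. Its log2 fold change was -0.08 (SE 0.0279, adjusted p = 0.0102) and became 0.00 with GC and length correction. Psmd7 (Rpn8), the catalytically inactive partner of Psmd14, had -0.08 (adjusted p = 0.0284). Psmd6, Psmd13 and Psmd3 had log2 fold changes of -0.01, 0.02 and 0.04 (adjusted p = 0.766, 0.588 and 0.307). With the correction, 5 lid members were lower (Psmd8, Psmd12, Psmd7, Psmd13 and Psmd3) and 0 higher. Exons of Psmd13 overlap those of Sirt3 on the opposite strand over 10.1% of their length, and strand use in the counting is not stated.

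**Figure D2:**
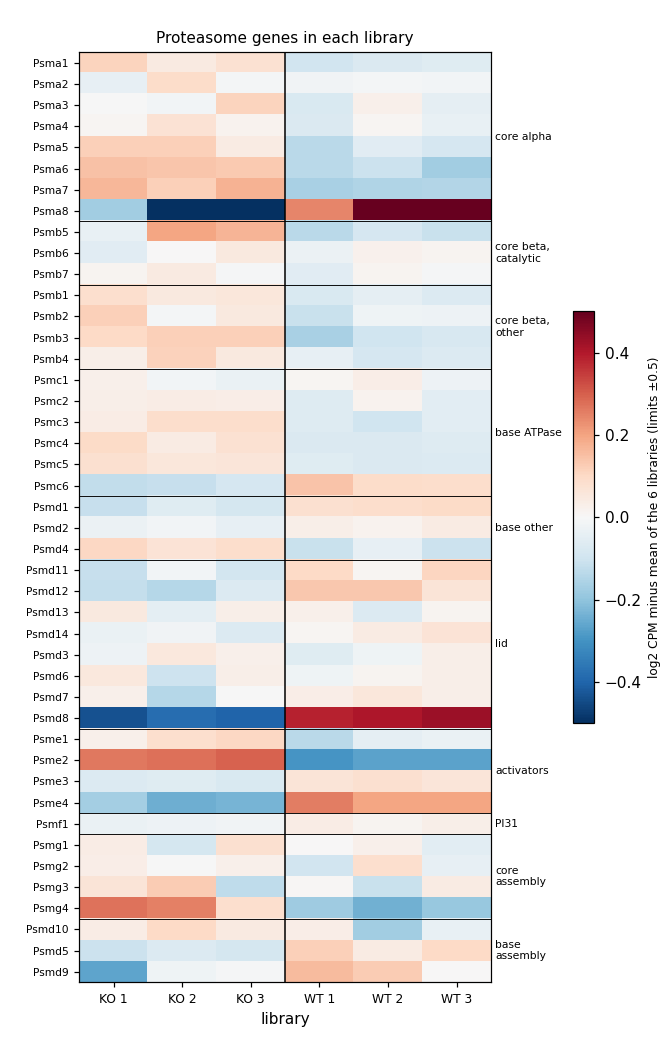
Log2 CPM of each proteasome gene in each library minus its mean over the 6 libraries, with KO libraries on the left and WT libraries on the right. Red is above and blue below the mean, and colours are limited at ±0.5, which only Psma8 exceeds. The Psmd8 and Psme4 rows are blue in KO and red in WT, the Psme2 row is red in KO and blue in WT, and most core rows are pale red in KO.

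The base of the regulatory particle changed in both directions. Of its 6 ATPases, which form the unfolding ring, 4 were higher, 1 was lower and 1 did not pass the test. Psmc3, Psmc4 and Psmc5 (Rpt5, Rpt3 and Rpt6) moved almost alike, with log2 fold changes of 0.14, 0.14 and 0.13 (adjusted p = 7.15e-06, 5.2e-05 and 0.000103). With GC and length correction these 3 values were -0.04, 0.02 and 0.00, so none of them passed. Psmc2 (Rpt1) had 0.06 (adjusted p = 0.0402) and Psmc1 (Rpt2), whose tail opens the core, had -0.01 (adjusted p = 0.671). With the correction Psmc2 was higher at 0.21, and Psmc1 and Psmc6 (Rpt4) were both lower, at -0.07 and -0.11. Without it Psmc6 was the only ATPase called lower. It had 89.4, 89.8 and 92.0 CPM in KO libraries and 107, 104 and 103 CPM in WT libraries, without overlap, and its log2 fold change was -0.21 (SE 0.0306, adjusted p = 1.34e-07). Per length it was also the lowest ATPase, at 95.6 ± 1.14 TPM in KO and 122 ± 3.18 TPM in WT, against 140.3 to 216 TPM in KO and 140.4 to 241 TPM in WT for the other 5.

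The non-ATPase subunits of the base also differed in direction. The scaffold subunits Psmd1 (Rpn2) and Psmd2 (Rpn1) had log2 fold changes of -0.17 (adjusted p = 5.33e-08) and -0.06 (adjusted p = 0.0134), and both stayed lower with GC and length correction, at -0.13 and -0.12. The ubiquitin receptor Psmd4 (Rpn10) had 0.17 (adjusted p = 2.69e-06), and 0.04 with the correction, which did not pass. Exons of Psmd1 share 3.47% of their length with Htr2b and those of Psmc3 share 8.25% with Slc39a13, each on the opposite strand.

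Core particle genes were either higher or did not pass the test, with the exception of a low-count alpha subunit. Leaving that subunit out, 10 of 14 were higher and 0 lower, with a median log2 fold change of 0.13. With GC and length correction 10 were higher and 1, Psmb6, was lower, though these were not all the same genes: Psma2, Psma3 and Psmb7 then passed, and Psmb5, Psmb2 and Psmb4 did not. In the alpha ring, Psma7 (alpha 4) had 153, 148 and 154 CPM in KO libraries and 122, 123 and 123 CPM in WT libraries. Its KO libraries were all higher, and the log2 fold change was 0.31 (SE 0.0272, adjusted p = 2.79e-12) and 0.09 with the correction. Psma6 (alpha 1) had 227, 226 and 225 CPM in KO libraries and 187, 190.3 and 182 CPM in WT libraries. These groups did not overlap either, and its log2 fold change of 0.28 (SE 0.0244, adjusted p = 1.96e-12) was 0.26 with the correction. Psma5 and Psma1 had 0.18 and 0.15 (adjusted p = 7.78e-07 and 4.31e-06), and Psma4 had 0.07 (adjusted p = 0.0427). Psma3 and Psma2 did not pass, with 0.06 and 0.03 (adjusted p = 0.055 and 0.395).

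Psma8, the testis alpha subunit that replaces Psma7 in spermatogenic cells, was detected at a low level. It had 52, 40 and 38 counts in KO libraries and 72, 87 and 91 counts in WT libraries. All KO libraries were lower, and at 2.21 ± 0.379 CPM in KO against 4.08 ± 0.482 CPM in WT (SD, n = 3 each) the log2 fold change was -0.89 (SE 0.156, adjusted p = 6.16e-06). This was the lowest log2 fold change of the members and rests on the fewest counts. In KO it had 2.14 TPM, against 4.32 TPM in WT, while Psma7 stood at 318 TPM in KO and 285 TPM in WT.

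Of the 3 catalytic beta subunits, only Psmb5, which carries the chymotrypsin-like site and is the target of bortezomib, passed the test. It had 191, 225 and 221 CPM in KO libraries and 179, 185 and 182 CPM in WT libraries. The groups did not overlap, although KO replicate 1 lay close to the WT libraries, and the log2 fold change was 0.22 (SE 0.0348, adjusted p = 6.43e-07). With GC and length correction it was -0.02. Psmb6, with the caspase-like site, had 173, 181 and 187 CPM in KO libraries and 177, 183 and 182 CPM in WT libraries. Psmb7, with the trypsin-like site, had 138, 141 and 136 CPM in KO libraries and 131, 138 and 136 CPM in WT libraries. Both overlapped between the groups, with log2 fold changes of 0.00 (adjusted p = 0.914) and 0.03 (adjusted p = 0.283). With the correction Psmb6 was called lower, at -0.15, and Psmb7 higher, at 0.16. Exons of Psmb7 overlap those of Nek6, a gene on the opposite strand with 70.0 CPM in KO and 92.7 CPM in WT, over 11.8% of their length.

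All 4 beta subunits without a cutting site in this set were higher. Psmb3 had 135, 136 and 136 CPM in KO libraries and 112, 117 and 119 CPM in WT libraries, well separated, and its log2 fold change was 0.23 (SE 0.0284, adjusted p = 9.59e-09). Psmb4, Psmb1 and Psmb2 had 0.13, 0.13 and 0.11 (adjusted p = 5.72e-05, 0.000198 and 0.00656). With GC and length correction, Psmb3 and Psmb1 stayed higher at 0.16 and 0.08, and Psmb4 and Psmb2 were at -0.02 and -0.04.

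The 4 activator genes divided into a higher and a lower pair. Psme1 and Psme2 encode PA28 alpha and beta, interferon-inducible subunits of 1 ring that is linked to peptide production for MHC class I. Psme2 had 215, 216 and 219.6 CPM in KO libraries and 146, 149 and 149 CPM in WT libraries. The KO libraries were all far above the WT libraries, and the log2 fold change was 0.56 (SE 0.0248, adjusted p = 8.32e-21), 0.38 with GC and length correction and 0.38 to 0.57 over all settings. Psme1 had 111, 116 and 117 CPM in KO libraries and 99.6, 106 and 107 CPM in WT libraries, close but without overlap. Its log2 fold change was 0.14 (SE 0.0314, adjusted p = 0.00018) and -0.05 with the correction. The ratio of Psme2 to Psme1 in TPM was 2.16 ± 0.0444 in KO and 1.62 ± 0.0464 in WT (SD, n = 3 each). Transcripts of Psme2 match those of a listed copy, Psme2b, at 99.4% identity over 794 bases, so the split of reads between them is uncertain. Psme2b had 3.06 CPM in KO and 2.55 CPM in WT.

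Psme3 encodes PA28 gamma, the nuclear form, and Psme4 encodes PA200, a nuclear cap linked to the degradation of acetylated histones. Psme4 had 75.2, 71.4 and 72.1 CPM in KO libraries and 101, 96.9 and 96.9 CPM in WT libraries. Every KO library was lower, and the log2 fold change was -0.43 (SE 0.0330, adjusted p = 4.91e-14) and -0.24 with GC and length correction. Psme3 had 148, 148 and 147 CPM in KO libraries and 162, 164 and 162 CPM in WT libraries. The groups were separate and tight, and the log2 fold change was -0.14 (SE 0.0256, adjusted p = 1.37e-05) and -0.18 with the correction. Per length, Psme4 was the lowest activator, at 15.6 ± 0.395 TPM in KO and 23.2 ± 0.557 TPM in WT, and Psme2 the highest, at 501 ± 2.61 TPM in KO and 377 ± 0.271 TPM in WT. Psmf1 encodes PI31, a binding partner of the core first described as an inhibitor. It had 34.8, 34.99 and 35.2 CPM in KO libraries and 36.5, 35.9 and 36.3 CPM in WT libraries, and its log2 fold change of -0.05 did not pass the test (SE 0.0442, adjusted p = 0.306), although the KO values lay just below the WT values.

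Per length, the assembly factors among the members stood below every core, base and lid subunit other than Psma8. The chaperones of the core, Psmg1 to Psmg4, had mean levels of 32.7 to 48.8 TPM in KO and 35.7 to 40.9 TPM in WT. Psmg4 had 7.71, 7.61 and 6.78 CPM in KO libraries and 5.64, 5.40 and 5.61 CPM in WT libraries, from 133 to 152 counts in KO and 110 to 115 counts in WT. It was higher in each KO library, by 0.41 on the log2 scale (SE 0.103, adjusted p = 0.000727), and at 0.14 with GC and length correction it did not pass. Its partner Psmg3 had a log2 fold change of 0.04 (adjusted p = 0.606). The other chaperone pair, Psmg1 and Psmg2, had 0.02 and 0.03 (adjusted p = 0.8 and 0.629). Of the 3 chaperones of the base, Psmd5 (S5b) and Psmd9 (p27) had -0.17 and -0.19 (adjusted p = 4.75e-05 and 0.00342), and Psmd10 (gankyrin), on the X chromosome, had 0.12 (adjusted p = 0.0326). Psmd5 was at -0.05 and did not pass with the correction. Psmd9 and Psmd10 kept their calls at -0.26 and 0.20.

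**Figure D3:**
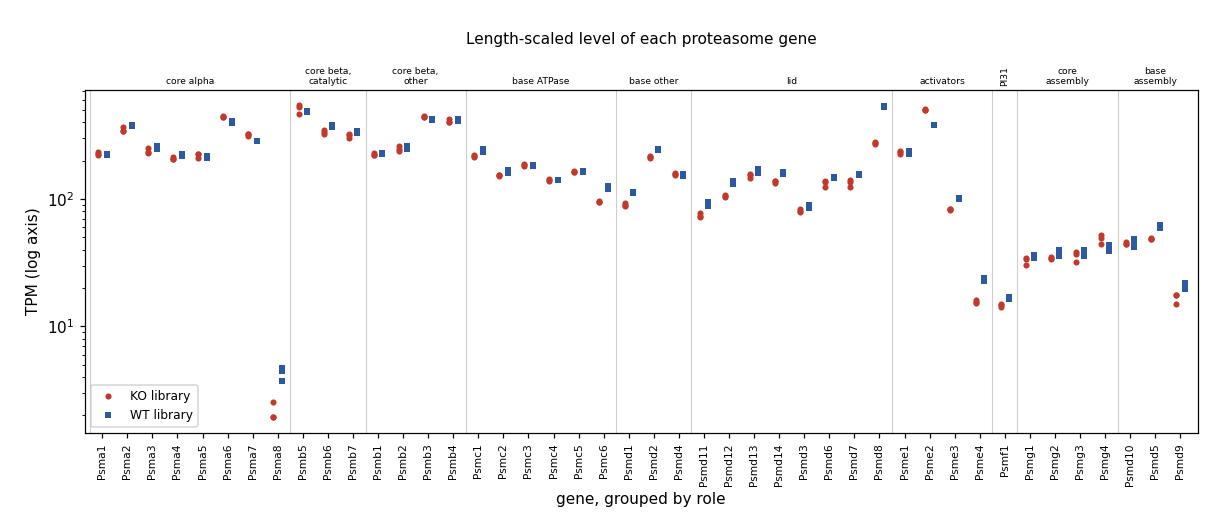
Level of each proteasome gene in TPM on a log axis, with genes grouped by role. Red circles are the KO libraries and blue squares the WT libraries, 3 of each per gene, with KO to the left. Core subunits other than Psma8 stand above 200 TPM and assembly factors below 100 TPM in both groups. Psmd8 stands above the other lid genes shown in both.

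Summed per length over the members, the core transcripts were level between the groups and the lid transcripts were not. The 14 core genes other than Psma8 summed to 4448, 4527 and 4475 TPM in KO libraries and 4463, 4516 and 4472 TPM in WT libraries, which overlapped. The 9 base genes summed to 1413 ± 7.62 TPM in KO and 1523 ± 10.6 TPM in WT (SD, n = 3 each). The 8 lid genes summed to 1099, 1077 and 1096 TPM in KO libraries and 1474, 1466 and 1486 TPM in WT libraries, a ratio of 0.739. Without Psmd8 the other 7 lid genes still summed to 815 ± 16.4 TPM in KO and 943 ± 7.02 TPM in WT, a ratio of 0.865. These lid sums leave out the lid subunit Sem1, which is not a member and went the other way. Sem1 had 725, 696 and 734 TPM in KO libraries and 536, 650 and 664 TPM in WT libraries. The sums of base and lid did not overlap between KO and WT. The 4 activators summed to 831 ± 5.71 TPM in KO and 732 ± 6.22 TPM in WT, and Psme2 alone accounted for more than that difference. All 44 genes summed to 8097 ± 28.5 TPM in KO and 8515 ± 23.3 TPM in WT. These sums were not tested. The median shift of -0.12 on the TPM scale applies to them, and ratios between parts within a library, which do not carry it, are given next.

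The lid-to-core ratio of summed TPM was 0.247, 0.238 and 0.245 in KO libraries and 0.330, 0.325 and 0.332 in WT libraries. Without Psmd8 it was 0.186, 0.176 and 0.183 in KO libraries and 0.212, 0.207 and 0.212 in WT libraries. The groups did not overlap in either ratio. Both ratios leave out Sem1, so they do not describe the whole lid, and ratios with Sem1 included were not calculated. The base-to-core ratio was 0.315 ± 0.00374 in KO and 0.340 ± 0.00263 in WT, and the activator-to-core ratio was 0.185 ± 0.00179 in KO and 0.163 ± 0.00108 in WT (SD, n = 3 each). These are ratios of transcripts, and the protein particles were not measured.

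**Figure D4:**
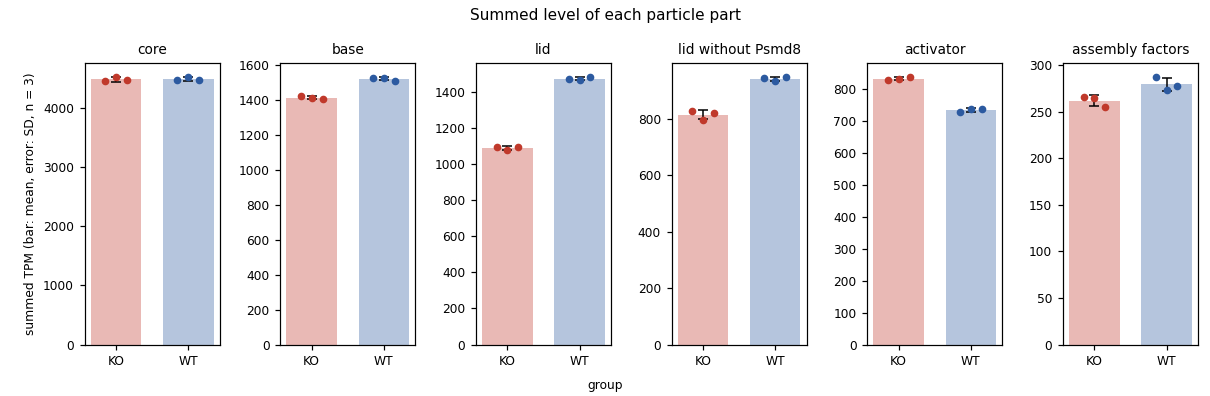
Summed TPM of the member genes of each part of the proteasome, with 1 panel per part and KO left of WT. Sem1 is not in the lid panels. Bars are means, error bars the SD (n = 3), and points the libraries. The core panel is level at 4486 TPM in KO and 4488 TPM in WT with Psma8 included, the lid panel falls to 1091 TPM in KO against 1475 TPM in WT, and the activator panel stands at 831 TPM in KO against 732 TPM in WT.

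The inducible catalytic subunits, which replace the constitutive ones, were all higher, with log2 fold changes of 0.19 for Psmb8, 0.47 for Psmb9 and 0.43 for Psmb10. With GC and length correction Psmb9 and Psmb10 stayed higher, at 0.33 and 0.21, and Psmb8 did not pass, at 0.06 (adjusted p = 0.0699). Per length, the ratio of Psmb9 to Psmb6 was 0.165 ± 0.00529 in KO and 0.119 ± 0.00789 in WT, that of Psmb10 to Psmb7 was 0.2995 ± 0.0127 in KO and 0.227 ± 0.0127 in WT, and that of Psmb8 to Psmb5 overlapped between the groups, at 0.430 ± 0.0211 in KO and 0.438 ± 0.0236 in WT (SD, n = 3 each).

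Other genes of the same machinery, which the naming pattern does not take in, fell more often than they rose. Of 17 tested, 3 were higher, 10 lower and 4 did not pass, with a median log2 fold change of -0.13, and of -0.03 with GC and length correction (4 higher, 7 lower). The deubiquitinase gene Uchl5 was at 34.5 ± 0.961 CPM in KO and 48.0 ± 0.390 CPM in WT (log2 fold change -0.48). Zfand2a, an arsenite-inducible proteasome partner, was at 86.5 ± 4.07 CPM in KO and 133 ± 2.26 CPM in WT (-0.63). Pomp, the maturation factor of the core, was higher, at 180.2 ± 2.52 CPM in KO and 153 ± 1.46 CPM in WT (0.23). Usp14, another deubiquitinase of the particle, was lower by the same test (-0.26). The lid subunit Sem1 was higher (0.38, and 0.48 with GC and length correction). Both were chosen after their values were seen.

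Of 11 genes that control proteasome transcription through NRF1 and NRF2, 3 were higher, 6 lower and 2 did not pass. The counts higher and lower were the same with GC and length correction, though the lower genes were not all the same. With it Sel1l and Ddi2 no longer passed, and Keap1 and Syvn1 passed as lower, at -0.13 and -0.22. The transcription factor genes themselves went opposite ways: Nfe2l1, encoding NRF1, was at 296 ± 10.5 CPM in KO and 257 ± 3.50 CPM in WT (log2 fold change 0.20), and Nfe2l2, encoding NRF2, was at 236 ± 2.68 CPM in KO and 272 ± 2.58 CPM in WT (-0.21). Of 12 other known NRF2 target genes, 5 were higher and 7 lower, and with the correction 3 were higher and 9 lower. The 4 with the smallest p were Slc7a11 (a cystine transporter) at -0.83, Txnrd1 (thioredoxin reductase) at -0.51 and Srxn1 (sulfiredoxin) at -0.49 on one side and G6pdx (glucose-6-phosphate dehydrogenase) at 0.59 on the other. Of 6 ubiquitin and ubiquitin-activating enzyme genes, 5 were higher and 1 was lower, with a median log2 fold change of 0.21. With the correction 3 were higher and 0 lower, with a median of 0.04. The ubiquitin gene Ubb was at 1175 ± 29.1 CPM in KO and 1009 ± 31.3 CPM in WT (log2 fold change 0.22), and Rps27a, a ubiquitin fusion gene, had 0.28. With the correction Ubb was at 0.05 and Rps27a at 0.32.

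For comparison, genes of 3 other multi-subunit machines were counted in the same test. Of 9 tested genes of the p97 unfoldase and its adaptors, 3 were higher and 5 lower, with a median log2 fold change of -0.07, and with the correction 3 were higher and 4 lower (median -0.05). Of the 8 subunits of the CCT chaperonin, 1 was higher and 4 were lower (median -0.05), and with GC and length correction 1 was higher and 1 lower (median 0.03). Of 10 genes of the COP9 signalosome, whose subunits resemble those of the lid, 4 were higher and 3 lower (median 0.01), and with the correction 2 were higher and 2 lower (median -0.03). The differences between these machines and the proteasome parts were not tested.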

How the data were processed

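RNA sequencing of 3 KO and 3 WT libraries was deposited as 1 table of gene values. The submitters' processing notes name HISAT, Bowtie2 and the build GRCm38.p6 without a role; for the counter, annotation and strand setting nothing is given in the sources used here. The deposited estimated counts (expected counts) per gene were rounded to whole numbers, since 8.66% to 9.19% of genes per library were not whole. TPM and FPKM values are the authors' own, per the file headers; FPKM was used in 1 alternative.

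The test of KO against WT was the quasi-likelihood test of edgeR 4.0.16 in R 4.3.3, with group as the only term and TMM scaling. Of the genes 11817 were tested and 4007 removed by filterByExpr; p-values were adjusted by the Benjamini-Hochberg method (threshold 0.05). CPM are counts scaled to TMM-adjusted library sizes. The script was tested on simulated data. Libraries of a group differed beyond counting noise (chi-square per gene 1.39 to 1.61, and 62.1 to 65.2 between groups). Alternatives used other scaling and filters, DESeq2 1.42.0, limma 3.58.1, the replicate block, leaving out each library, other units and an assumed spread; the GC and length correction (available for 96.8% of genes) and centred TPM were added after seeing the data. All members and lists were chosen with earlier results of these data known. Values in every library are given for the 5 highest and 5 lowest called members, catalytic subunits, Psmd14, activators and Psmf1; other genes are the leading ones of each list by p, fewer than the rule allows. RefSeq gave the IDs and coordinates of all 44 members. Of these, 14 have a transcript copy of at least 95% identity over 200 bases (BLAST 2.17.0), which is a listed gene for Psme2 only. Python 3.11.15, pandas 2.3.3 and matplotlib 3.10.9 were used for the rest.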

Additional observations from a re-analysis of the deposited data

How the results depend on the processing

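Of the 21 settings, most left the counts of members within 1.5 times of 19 higher and 13 lower. With the biological coefficient of variation set to 0.1, 3 members were higher and 3 lower, and 4406 of all genes passed. With a difference of at least 25% also required, 2 members were higher and 3 lower, and 4318 of all genes passed. By limma on log2(TPM + 1), on that scale without the filter and on log2(TPM + 0.1), 5 members were higher in each case, and 24, 23 and 25 were lower. Of the 11817, 15824 and 11817 genes tested there, 2463, 2410 and 2466 were higher and 5781, 5915 and 5786 lower. The median log2 fold change of the members, 0.0349 by edgeR, was -0.0235 with GC and length correction, -0.0221 with total count scaling, 0.0269 with upper-quartile scaling, 0.0445 without the low-count filter, -0.0264 on log2(FPKM + 1), -0.106 on log2(TPM + 1) with and without the filter, and -0.109 on log2(TPM + 0.1). It ranged from 0.0315 to 0.0499 when 1 library was left out. Single members changed sign: with GC and length correction Psmb5 was at -0.0243, Psmd14 at 0.00257 and Psme1 at -0.0535. On the TPM scales Psme1 was at -0.00362 (pseudocount 1, with and without the filter) and -0.00363 (0.1), and Psmb7 at -0.111 and -0.112. Psmb7 was also at -0.0302 on log2(FPKM + 1) and -0.0232 with total count scaling. Psmb6, at -0.00357 by edgeR, was at 0.00608 without the filter and between -0.0277 and 0.0257 when 1 library was left out. The cause of these differences was not tested. Deviations of same-numbered libraries correlated at -0.0178, 0.0278 and 0.0193. These values show no shared deviation. With so little spread within the groups, they cannot tell whether the numbers pair the samples. With the replicate block 20 members were higher and 13 lower.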
